A study of Mus musculus with 36 samples.

Results

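Regions of open chromatin found in megakaryocyte-erythrocyte progenitors (MEPs) and not in other hematopoietic stem and progenitor fractions of mouse bone marrow are described here. Joining every pair of peaks that shared 1 bp or more, over all 36 ATAC-seq libraries, gave a catalogue of 105005 regions. A region was taken as open in MEP only when a peak was called there in at least 2 of the 4 MEP libraries and in at most 1 library of each other fraction. This left 1016 MEP-only regions, 0.968% of the catalogue, and since they were chosen by the peak calls themselves, their presence in MEPs is no finding. Over the whole catalogue, 9.98% of regions (10479) were called in 2 or more MEP libraries, and 9.70% of those were MEP only.

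ATAC-seq, in which a transposase cuts and tags accessible DNA, was performed on nuclei from 20000 sorted cells per library of C57BL/6 mice, female per the study's methods. Mice were young (10 weeks) or aged (20 months), and HSCs had 4 libraries per age while MPP1, MPP2, MPP3, MPP4, GMP, MEP and CLP had 2 per age. The MEP gate took c-kit+ cells that were negative for CD34, FcgR, Sca-1, the IL-7 receptor (written IL-7- in the labels, with the receptor antibody given in the study's methods) and the lineage markers (Lin-). The marrow of each age was pooled before sorting, so p-values measure the spread between libraries, which may be technical. The MEP gate holds a mixture of cells at several steps towards megakaryocytes and erythrocytes.

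MEPs stand where the megakaryocyte and erythroid lineages part from the other blood lineages. In these lineages the zinc finger factors GATA1 and GATA2 bind a short GATA sequence, often beside a partial E-box bound by TAL1 and its partners with LMO2 and LDB1, and KLF1 binds CACCC boxes of red cell genes. Most of their known sites lie in introns and between genes rather than at transcription start sites (TSSs).

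The strongest members and their sequences are shown first. Of the matches marked in them, the hexamers were later found in most members and the pairs in 26.2%. Strength was ranked among the members called in all 4 MEP libraries and in none of the 32 others, by the lowest percentile of fold enrichment that the region took within a MEP library. Each run below is 201 bases around the median summit, read from GRCm38 (the assembly of mm10), 5′ to 3′. Capitals mark the GATA hexamers on either strand (the form AGATAA, the form AGATAG, the form TGATAA or the form TGATAG), and a CTG that precedes GATA by 9 bases on 1 strand together with that GATA.
Lmntd1, chr6:145471952-145472152, plus strand: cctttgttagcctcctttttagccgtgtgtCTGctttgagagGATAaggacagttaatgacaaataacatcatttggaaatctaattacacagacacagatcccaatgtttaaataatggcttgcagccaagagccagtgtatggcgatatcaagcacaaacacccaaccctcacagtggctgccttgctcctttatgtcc
E130308A19Rik, chr4:59689120-59689320, plus strand: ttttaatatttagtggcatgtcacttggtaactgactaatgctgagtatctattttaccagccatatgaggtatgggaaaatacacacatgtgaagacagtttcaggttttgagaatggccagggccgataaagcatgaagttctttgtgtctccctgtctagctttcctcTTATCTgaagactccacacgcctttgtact
Larp4b, chr13:9120943-9121143, plus strand: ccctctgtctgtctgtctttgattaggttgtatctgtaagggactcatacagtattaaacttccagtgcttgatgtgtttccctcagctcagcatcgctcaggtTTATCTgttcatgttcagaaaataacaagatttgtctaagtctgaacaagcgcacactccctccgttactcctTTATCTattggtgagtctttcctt
Jsrp1, chr10:80818917-80819117, plus strand: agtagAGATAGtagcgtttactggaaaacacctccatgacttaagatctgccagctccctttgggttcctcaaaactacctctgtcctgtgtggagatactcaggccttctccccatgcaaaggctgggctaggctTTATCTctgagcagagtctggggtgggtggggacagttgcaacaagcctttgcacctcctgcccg
Syf2, chr4:134982083-134982283, plus strand: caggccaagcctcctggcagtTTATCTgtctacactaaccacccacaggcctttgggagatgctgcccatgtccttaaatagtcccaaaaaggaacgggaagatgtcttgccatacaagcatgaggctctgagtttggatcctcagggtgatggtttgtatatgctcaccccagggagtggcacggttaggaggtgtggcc
Cyth3, chr5:143639804-143640004, plus strand: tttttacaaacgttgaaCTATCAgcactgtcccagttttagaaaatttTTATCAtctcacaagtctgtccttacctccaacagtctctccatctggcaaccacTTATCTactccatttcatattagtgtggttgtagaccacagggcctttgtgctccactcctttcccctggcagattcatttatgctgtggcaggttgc

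Of these 6 windows, 5 held at least 1 GATA hexamer, and the window near Lmntd1 held no hexamer but 1 CTG and GATA pair. The next set lies closest to genes of the erythroid list and was chosen in the same way from the members called in all 4 MEP libraries, leaving out any window that reached a UTR.
Cpox, chr16:58661947-58662147, plus strand: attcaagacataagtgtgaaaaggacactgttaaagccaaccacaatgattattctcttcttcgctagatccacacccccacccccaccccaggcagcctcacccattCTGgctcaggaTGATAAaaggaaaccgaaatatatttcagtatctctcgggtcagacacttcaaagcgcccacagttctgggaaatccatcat
Sox6, chr7:115831015-115831215, plus strand: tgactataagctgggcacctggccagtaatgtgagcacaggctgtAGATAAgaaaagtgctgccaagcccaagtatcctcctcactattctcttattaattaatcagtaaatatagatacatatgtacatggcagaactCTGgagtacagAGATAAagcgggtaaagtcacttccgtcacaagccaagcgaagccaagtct
Alas2, chrX:150549722-150549922, plus strand: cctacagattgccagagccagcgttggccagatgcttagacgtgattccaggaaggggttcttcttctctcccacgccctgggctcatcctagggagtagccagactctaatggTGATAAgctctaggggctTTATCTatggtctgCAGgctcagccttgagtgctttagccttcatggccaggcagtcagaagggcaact
Sptb, chr12:76670691-76670891, plus strand: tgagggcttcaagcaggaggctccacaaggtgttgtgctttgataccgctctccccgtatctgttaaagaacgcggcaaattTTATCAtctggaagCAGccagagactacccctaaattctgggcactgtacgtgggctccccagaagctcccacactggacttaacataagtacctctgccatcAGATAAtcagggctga
Alad, chr4:62516767-62516967, plus strand: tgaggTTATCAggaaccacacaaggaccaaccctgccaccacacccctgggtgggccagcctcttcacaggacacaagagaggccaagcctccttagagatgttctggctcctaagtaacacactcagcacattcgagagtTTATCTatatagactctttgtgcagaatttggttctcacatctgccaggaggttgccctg

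All 5 windows near erythroid genes held at least 1 GATA hexamer, and 4 of them also held the CTG and GATA pair at the 9-base distance, the exception being Alad. Over all members with sequence 85.1% held a hexamer and 26.2% the pair, so these windows do not show how common the pair was. Alas2 (the erythroid form of the first enzyme of heme synthesis), Cpox and Alad (later enzymes of heme synthesis), Sptb (erythrocytic beta-spectrin) and Sox6 (a transcription factor of definitive red cells) are the genes nearest to them. Assignment to the nearest protein-coding TSS does not show which gene a region acts on.

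The 36 peak lists were alike in depth but not in the number of peaks. Solving the fold enrichment and Poisson p-value of weak peaks for their background gave 8986925 to 8996222 reads in every library, if the default mouse genome size of the peak caller was used. MEP libraries had 9581 to 11041 peaks and the other 32 libraries had 27087 to 63288. Around weak peaks the background within 10 kb was 101 to 105 reads in the 4 MEP libraries and 48.1 to 85.5 reads in the others, and its part in the low number of MEP peaks was not tested. Marker genes were checked at their TSSs. Of 10 erythroid markers, 1 had a region at its TSS called in 2 or more MEP libraries, and 8 had no region at their TSS in any of the 36 libraries, among them Gata1, Klf1 and Epor. In every other fraction the count was also 1 of 10, so these TSSs do not tell the fractions apart. None of 5 granulocyte-macrophage, 5 lymphoid and 6 mast cell, basophil and eosinophil markers was open at its TSS in 2 or more MEP libraries, while 4 of the 5 granulocyte-macrophage markers were in GMP. None of 6 megakaryocyte, 4 stem cell or 4 stroma and endothelium markers was open at its TSS in 2 or more MEP libraries, while 5 of the 6 megakaryocyte and 3 of the 4 stem cell markers were in HSC.

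The number of MEP libraries in which a member was called varied. All 4 MEP libraries called 337 members (33.2%), 3 called 283 (27.9%) and just 2 called 396 (39.0%). Among all regions called in 2 or more MEP libraries 61% were called in all 4, so members were reached in fewer MEP libraries than other MEP regions were. Outside MEPs, 873 members (85.9%) had no call at all, 104 had 1 call and 39 had 2 to 4 calls spread over different fractions.

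Young MEP replicates 1 and 2 called 716 and 754 members, and aged MEP replicates 1 and 2 called 721 and 798. The counts of the ages overlap, and the mean was 735 ± 26.9 (SD, n = 2) in young and 759.5 ± 54.4 (SD, n = 2) in aged MEPs. These counts come from the calls that chose the members, so they are given with no test. For other measures the smallest p of an exact permutation test of 2 libraries against 2 is 0.333, so no age difference in MEPs could pass 0.05. As a share of the regions called in a library, members made up 7.71% and 7.78% in young and 7.49% and 7.48% in aged MEPs. On this scale both aged values were below both young ones, the reverse of the order of the mean counts. In the other 32 libraries, between 0 and 40 members were called per library.

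**Figure D1:**
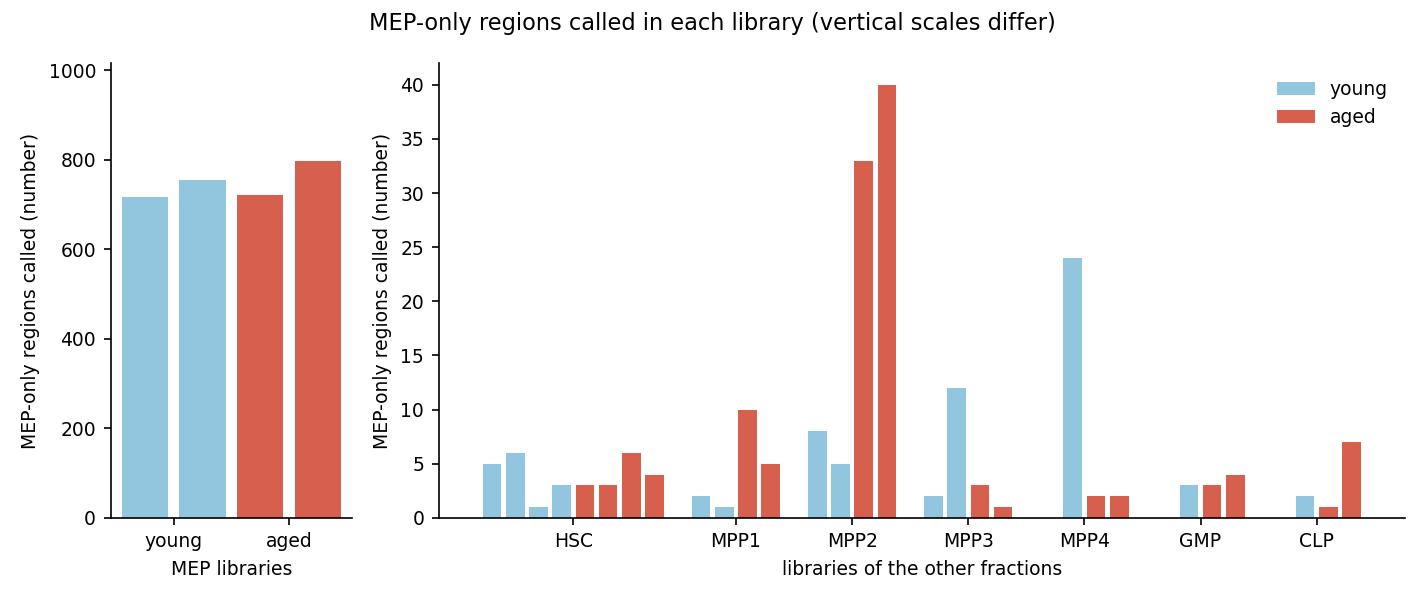
Number of MEP-only regions called in each library, with MEP libraries on the left and the 32 other libraries by fraction on the right, young in blue and aged in red. Bars show 716 to 798 calls in MEP libraries and at most 40 elsewhere, highest in the aged MPP2 libraries, and the vertical scales of the panels differ.

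Peaks at members were of modest height. Their median fold enrichment over local background was 6.26 and 6.07 in the young and 6.32 and 6.21 in the aged MEP libraries. The other regions of the same libraries lay at medians of 6.80 to 6.94, and those of them outside promoters at 6.46 to 6.62, so members were lower in each of the 4 libraries. A typical member summit rested on a median of 17, 17, 17 and 18 overlapping extended reads in the 4 libraries, with a range of 8 to 56. At the 337 members called in all 4 libraries the library medians were 6.73 ± 0.0954 (SD, n = 2) in young and 6.85 ± 0.0200 (SD, n = 2) in aged MEPs, a difference of 0.128 with p = 0.333 by the exact permutation test. Divided by each library's median at the 5335 regions called in all 36 libraries, the means were 0.890 in young and 0.889 in aged MEPs, so the higher aged value was not seen on this scale. Without young replicate 1 the difference was 0.332, without aged replicate 2 it was 0.243 and without aged replicate 1 it was 0.193, and with peaks of −log10 q of at least 10 it was 0.0125.

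The rule was also applied with each MEP library left out, to see how often an unused library called the regions found with the other 3. The left-out library called 63.9% and 67.9% of such regions in young and 64.9% and 72.2% in aged MEPs, of 783 to 841 regions. The mean of 67.2% ± 3.69 (SD, n = 4) was lower than the 81.0% ± 7.28 (SD, n = 4) found in the same way for regions open in GMP only, but adjusted p was 0.114 by the exact permutation test over the 2 comparisons made. For regions open in CLP only the mean was 66.1% ± 11.5 (SD, n = 4), which differed from MEP by 1.15 percentage points with adjusted p = 0.886 by the same exact permutation test. The smallest unadjusted p for 4 libraries against 4 is 0.0286. Each rate rests on regions chosen with the other 3 libraries of its fraction, so the 4 rates are not independent. The SDs and p-values do not allow for this.

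Most members lay outside promoters. Introns held 604 members (59.4%) and intergenic DNA 348 (34.3%), while 34 (3.35%) were at promoters, 19 (1.87%) in UTRs and 11 (1.08%) in other exons. Over the catalogue 40.6% of regions were intronic, 41.8% intergenic and 12.1% at promoters, taken from 1000 bp before to 100 bp after a protein-coding TSS. Regions open in GMP only had 3.88% at promoters and regions open in CLP only 2.40%. When each library was cut to its 9581 most significant peaks, the number in the MEP library with the fewest, 26.7% of the 2460 regions that then met the rule were promoters, and with peaks of −log10 q of at least 10 the share was 6.08%. The contrast within MEPs was wide, since 59.7% of the 9463 other regions called in 2 or more MEP libraries were at promoters. Median distance to the nearest TSS was 17425 bp for members, 18703 bp over the catalogue and 123 bp for those other MEP regions. Members had a median width of 363 bp and a median GC content of 48.8%, against 336 bp and 49.8% over the catalogue. Chromosome X held 11 members (1.08%) and 2.57% of the catalogue, and 1 member lay outside the numbered and sex chromosomes and was not searched for motifs.

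The sequence around the summits of members was dominated by GATA. Within 100 bp of the median summit, 864 of 1015 members with sequence (85.1%) held a GATA hexamer on either strand. The same search found it in 26.2% of all regions, 24.5% of regions open in GMP only, 22.5% of regions open in CLP only and 29.5% of the other MEP regions outside promoters. Per library the share among members called was 85.3% and 86.5% in young and 86.3% and 85.8% in aged MEPs. In the 4 GMP libraries the corresponding share of GMP-only regions was 24.2% to 24.7%, and in the 4 CLP libraries 21.97% to 23.2% of CLP-only regions. The mean of 86.0% ± 0.511 (SD, n = 4) in MEPs stands beside 24.5% ± 0.210 in GMP and 22.3% ± 0.619 in CLP. Libraries of a fraction share most of these regions, so the 4 values of a fraction are close to repeats of each other and are given with no test. With these equal numbers of peaks 54.1% of the regions that met the rule held a hexamer.

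More than 1 hexamer per member was common. A single hexamer was found in 380 members (37.4%), 2 in 351 (34.6%) and 3 or more in 133 (13.1%). Over the catalogue 4.53% of regions held 2 and 0.893% held 3 or more. Among members with none, 1 and 2 hexamers, 25.8%, 32.6% and 35.6% were called in all 4 MEP libraries, and 36.8% of those with 3 or more were. Median fold enrichment of these subsets, taken over members called in all 4 libraries, stayed between 6.66 and 6.96 without an order. The form nearest to the summit was AGATAA in 47.9% of members with a match, TGATAA in 24.2%, AGATAG in 20.3% and TGATAG in 7.64%. In regions open in GMP only the 4 forms were more even, at 29.7%, 25.5%, 26.1% and 18.7%.

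GATA hexamers were concentrated around the summit, over a broad stretch with no sharp peak. The bin from 70 to 80 bp still held one in 7.39% of members, and the nearest hexamer lay at a median of 28.5 bp. In 10-bp bins within 50 bp of the summit, 7.39% to 9.36% of members held a hexamer per bin, against 1.67% to 3.35% in bins more than 200 bp away. The nearest hexamer lay within 25 bp of the summit in 387 members (38.1%), compared with 8.52% of all regions. In windows of the same length centred 500 bp to either side of the same summits, 32.8% and 27.1% of members held the hexamer, close to the 29.6% and 29.7% found beside all regions. GMP-only and CLP-only regions were at 0.928% to 1.56% per bin within 50 bp of their summits.

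**Figure D2:**
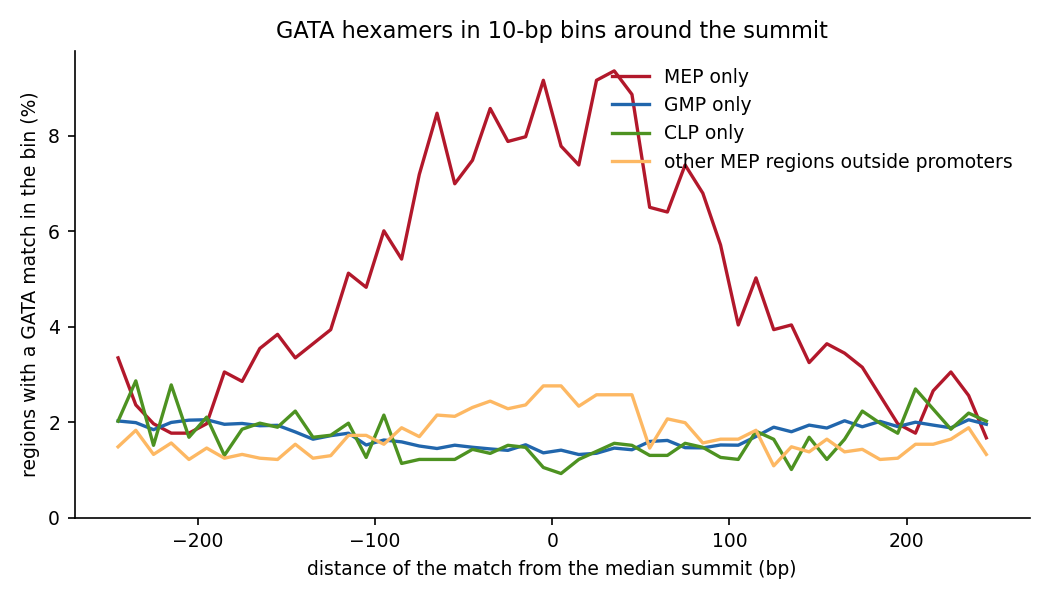
Share of regions with a GATA hexamer in each 10-bp bin (vertical axis, percent) by distance from the median summit (horizontal axis, bp), for MEP-only, GMP-only and CLP-only regions and for other MEP regions outside promoters. MEP-only regions reach 9.36% per bin near the summit, while GMP-only and CLP-only regions stay below 3% at every distance.

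A CTG ahead of GATA, the arrangement known from the TAL1 and GATA1 complex, was found at a preferred distance. With CTG and GATA on 1 strand and 9 bases between, 266 members (26.2%) held the pair, compared with 2.87% of all regions, 1.59% of GMP-only and 1.94% of CLP-only regions. It was held by 6.80% of the other MEP regions outside promoters, and by 16.6% of regions called in 1 MEP library and in at most 1 library of each other fraction. At 8 bases the share was 13.3% and at 10 bases 12.2%, whereas the other distances between 0 and 20 bases gave 2.66% to 8.77%. All of these pairs contain a GATA core, which is itself frequent in members, so the shares at other distances stand beside it for comparison. In the flanks 500 bp away the 9-base pair was found in 1.77% and 1.67% of members. The pair was held by 25.1% to 29.4% of the members called in each MEP library. With equal numbers of peaks per library 15.1% of the regions that met the rule held it. A longer consensus with 10 bases between CTG and GATA and an A or T before the GATA had been listed at first and matched 11.6% of members and 1.76% of all regions. The 9-base distance was chosen after the profile over distances had been seen.

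**Figure D3:**
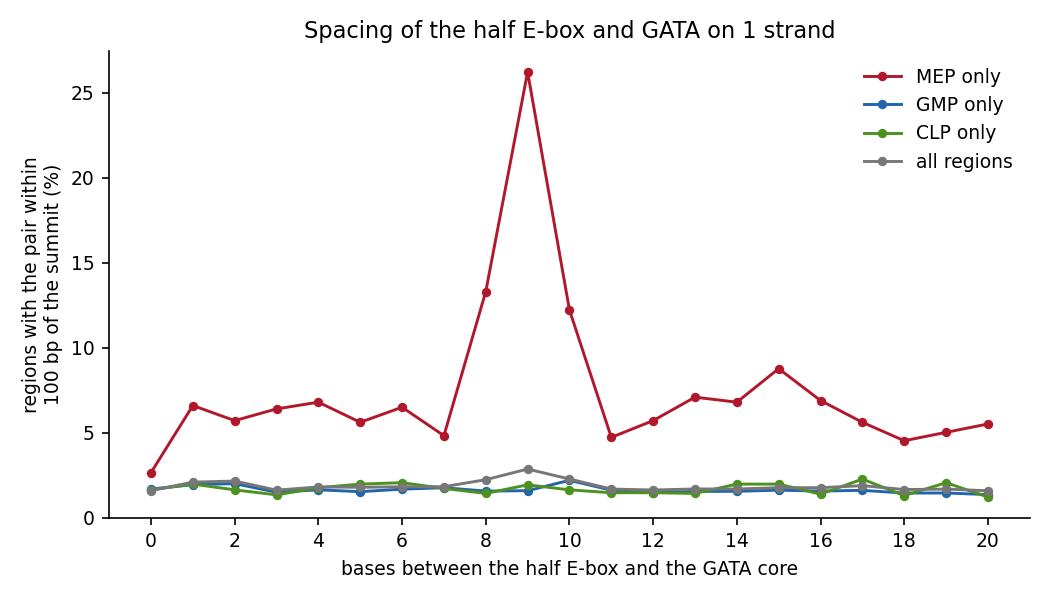
Share of regions (vertical axis, percent) that hold CTG followed by GATA on 1 strand within 100 bp of the summit, by the number of bases between them (horizontal axis). MEP-only regions peak at 26.2% for 9 bases, and the 3 other lines stay below 3% at every distance.

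Other motifs were not raised to a like degree. The CACCC box of the KLF and SP factors, CCNCNCCCN, was found in 22.6% of members and 28.2% of all regions. The E-box CAGCTG was found in 16.7% of members and 14.6% of all regions, and a RUNX form (the form TGTGGTTA or the form TGTGGTTT) in 8.28% and 7.54%. The PU.1 form AGGAAGTG was present in 1.08% of members but in 11.4% of GMP-only regions, 11.6% of CLP-only regions and 9.32% of all regions. An AP-1 form (the form TGACTCA or the form TGAGTCA) was found in 4.43% of members and 8.95% of all regions, and the NF-E2 motif, which contains an AP-1 form, in 0.985% and 0.995%. The CTCF core was found in 0.0985% of members and 2.30% of all regions. No member held the ETS form ACCGGAAGT, a C/EBP form (the form TTGCGCAAC, the form TTGCGCAAT, the form TTGCGTAAC or the form TTGCGTAAT) or the NRF1 motif, found in 0.364%, 0.274% and 0.205% of all regions. CACGTG (MYC and USF), TTCCNGGAA (STAT), TGATTTAT (HOX) and the IRF motif were found in 4.14%, 0.591%, 0.0985% and 0.296% of members and in 4.38%, 0.759%, 0.883% and 0.996% of all regions. Each match is a description of letters on either strand, not of a bound site.

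**Figure D4:**
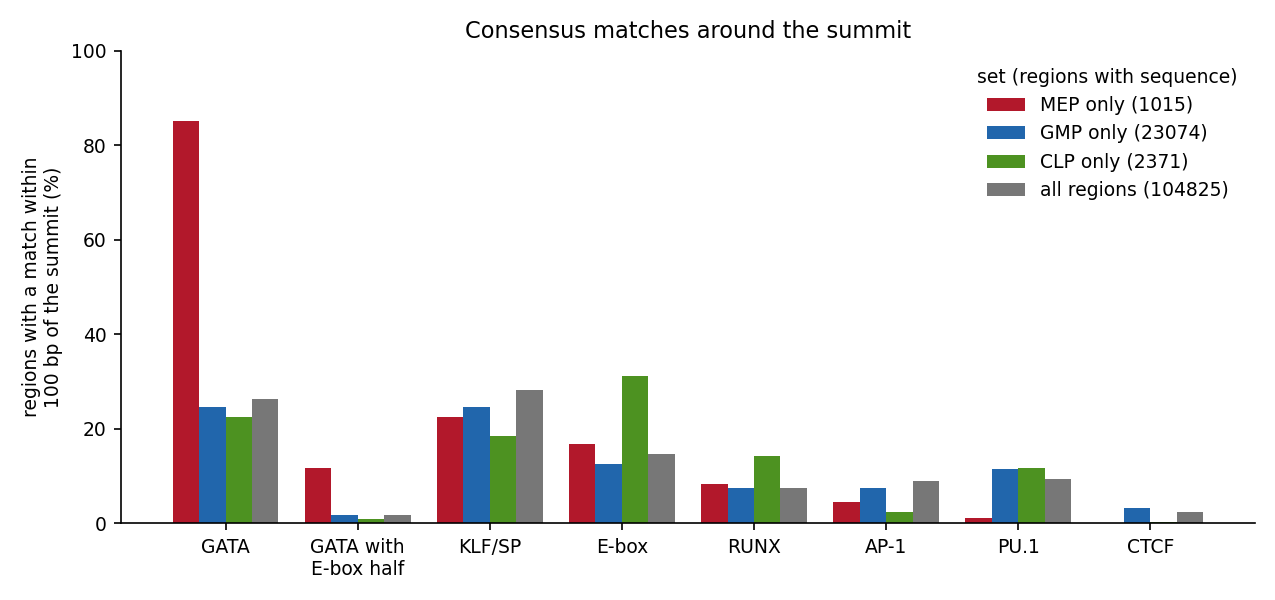
Share of regions (vertical axis, percent) with a consensus match within 100 bp of the summit for 8 motifs (horizontal axis), in MEP-only, GMP-only, CLP-only and all regions, with the number of regions with sequence in the key. GATA stands at 85.1% in MEP-only regions and at 22.5% to 26.2% in the other sets, while PU.1 is lowest in MEP-only regions.

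The 151 members without a hexamer were not without related letters, since 93 of them (61.6%) held the bare GATA core, against 30.3% of all regions that lacked a hexamer. CACCC boxes were found in 25.2% of these 151 members and in 22.1% of the members with a hexamer. A group of 3 members near Tmem267, at chr13:119598249-119598572, chr13:119600264-119600559 and chr13:119601859-119602256, were unlike the rest and were singled out after their values were seen. They held no hexamer and were the only 3 members below 3-fold enrichment in every library, at 2.37 to 2.83, although 37 to 56 reads lay at their summits, so the local background there was high.

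None of the 10 strongest members was nearest to a gene of the erythroid or megakaryocyte list. Of all members 2.85% and 0.591% were, so 10 members are too few to show a difference. The region chr6:145471904-145472313, between genes and at -21341 bp from the TSS of Lmntd1 (negative distances are upstream), reached 9.56 and 10.7-fold enrichment in the young and 11.8 and 11.5-fold in the aged libraries. The region chr4:59689014-59689534 in an intron of E130308A19Rik reached 10.1 and 12.8 in the young and 11.5 and 8.76 in the aged libraries. An intronic region of Larp4b, a gene for an RNA-binding protein, at chr13:9120851-9121219 reached 11.97 and 8.94 in the young and 8.73 and 8.65 in the aged libraries. Both aged values were above both young ones near Lmntd1, both young values were above both aged ones at Larp4b, and the ages overlapped at E130308A19Rik. With 2 libraries per age such separations could not pass 0.05 in an exact permutation test. The region at -5594 bp from Jsrp1 (chr10:80818827-80819346) reached 10.1 and 8.496 in young and 9.72 and 10.3 in aged MEPs. The intronic region of Cyth3, which encodes an exchange factor of ARF GTPases, at chr5:143639727-143640173 reached 8.83 and 9.13 in young and 10.4 and 8.22 in aged MEPs. Cbx3, which encodes the heterochromatin protein HP1 gamma, had an intronic member at chr6:51479047-51479736 with 10.2 and 9.66 in young and 8.12 and 9.01 in aged MEPs. The other 4 of the 10 lay nearest to Syf2, Gm17545, Serbp1 and Cdyl, with 7.91 to 10.8-fold enrichment over the libraries. Of the 10, 7 held a hexamer within 100 bp of the summit, and the regions near Lmntd1, Serbp1 and Cdyl did not.

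Members were next counted by their nearest gene. Of all members, 29 (2.85%) were nearest to 1 of the 71 annotated erythroid genes on the list, and these were 25 different genes. Over the catalogue 0.519% of regions and among the other MEP regions 0.539% were nearest to an erythroid gene. Seen from the genes, 80 regions called in 2 or more MEP libraries were nearest to an erythroid gene, and 36.3% of these (29) were MEP only, against 9.70% over all such regions. The same share was 17.6% (6 of 34) for megakaryocyte genes and 40% (2 of 5) for stem cell genes. The megakaryocyte list of 45 genes was nearest to 6 members (0.591%), compared with 0.461% of the catalogue. No member was nearest to a gene of the granulocyte-macrophage, the lymphoid, the mast cell, basophil and eosinophil or the stroma and endothelium list, which took 0.0981%, 0.0619%, 0.0571% and 0.112% of the catalogue. The stem cell list was nearest to 2 members (0.197%, against 0.0962% of the catalogue), both assigned to Mllt3.

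Genes of heme synthesis and iron had 6 members (0.591%, against 0.0562% of the catalogue). Of these, 3 were called in all 4 MEP libraries, as were 33.2% of all members. The member of Alas2, at chrX:150549607-150550076 in an intron 2382 bp downstream of the TSS, reached 6.65 and 10.9-fold enrichment in young and 5.69 and 5.89 in aged MEPs. Both young values were above both aged ones, and young replicate 2 stood well above the other 3. The member at -8291 bp from Cpox (chr16:58661774-58662229) reached 6.65 and 6.63 in young and 6.27 and 8.55 in aged MEPs, with the aged values on either side of the young. The member in an intron of Alad (chr4:62516680-62517061) was at 4.88 and 6.98 in young and 5.19 and 4.24 in aged MEPs. Uros, a further heme enzyme, had an intronic member at chr7:133702294-133702772 that was called in 3 MEP libraries, at 9.42 in young replicate 1 and 6.77 and 7.84 in aged MEPs. The members of Fech (ferrochelatase, the last enzyme of heme synthesis) and Abcb10 (a mitochondrial transporter of red cells) were called in 2 MEP libraries each.

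Genes of the red cell membrane and its cytoskeleton had 9 members at 7 genes (0.886%, against 0.110% of the catalogue). Sptb had 2 intronic members, of which chr12:76670583-76671018 reached 5.10 and 6.35 in young and 6.35 and 6.51 in aged MEPs. The other, at chr12:76673839-76674163, was called in 3 libraries at 4.63 to 5.31. At the promoter of Kel (the Kell blood group protein), chr6:41704132-41704614 was called in 3 MEP libraries at 4.36 to 5.14 and in aged MPP2 replicate 2. Aqp1 (a water channel of red cells), Ank1 (ankyrin), Epb41 (protein 4.1) and Tmod1 (tropomodulin) had 1 member each, of which that near Aqp1 was called in 3 MEP libraries and the others in 2.

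Transcription factors of the erythroid list had 7 members at 6 genes (0.689%, against 0.245% of the catalogue). The intronic member of Sox6 at chr7:115830912-115831427 was called in all 4 MEP libraries, at 5.73 and 5.67 in young and 7.29 and 8.97 in aged MEPs, so that both aged values were above both young ones. With 2 libraries per age, an exact permutation test of this or any other single member could not go below p = 0.333. A second Sox6 member, at a promoter (chr7:115845981-115846254), was called in replicate 1 of each age, at 5.61 in young and 7.27 in aged MEPs. The member at -60624 bp from Myb (chr10:21221363-21221853), which encodes a regulator of progenitor growth, was called in 3 libraries at 5.21 to 7.77. A promoter member of Lmo2, part of the TAL1 complex, at chr2:103956941-103957252 was called in 3 libraries at 3.72 to 7.06. Members near Cited4 and Klf3 were called in 3 and 2 MEP libraries. Kit, the receptor for stem cell factor and the c-kit of the MEP gate, had 2 members called in 2 MEP libraries each, at -197395 bp and 49424 bp from its TSS, the second of them also in young MPP4 replicate 2.

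Among other red cell genes, Trim10 had a promoter member at chr17:36869342-36869720 called in all 4 MEP libraries, at 6.57 and 6.66 in young and 5.33 and 5.09 in aged MEPs, both young values being above both aged ones. Car1 and Car2, carbonic anhydrases of red cells, had 1 member each in 2 MEP libraries, at the promoter of Car1 (chr3:14808245-14808644, 8.77 in young replicate 2 and 6.95 in aged replicate 1) and at -8661 bp from Car2 (3.70 and 3.98 in the replicate 2 libraries). On the megakaryocyte side none of the 6 members was called in all 4 MEP libraries, where 8 of the 29 erythroid members and 33.2% of all members were. With 6 members this is no contrast between the lists. The member in an intron of Fli1 (chr9:32476606-32476976), an ETS factor of megakaryocytes, was called in 3 libraries at 5.97 in young replicate 2 and 7.83 and 7.46 in aged MEPs. Members nearest to F2rl2 (a thrombin receptor) and Myl9 (a myosin light chain) were also called in 3 MEP libraries, and those of Vwf (von Willebrand factor of platelet granules), Meis1 and Rab27b in 2.

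**Figure D5:**
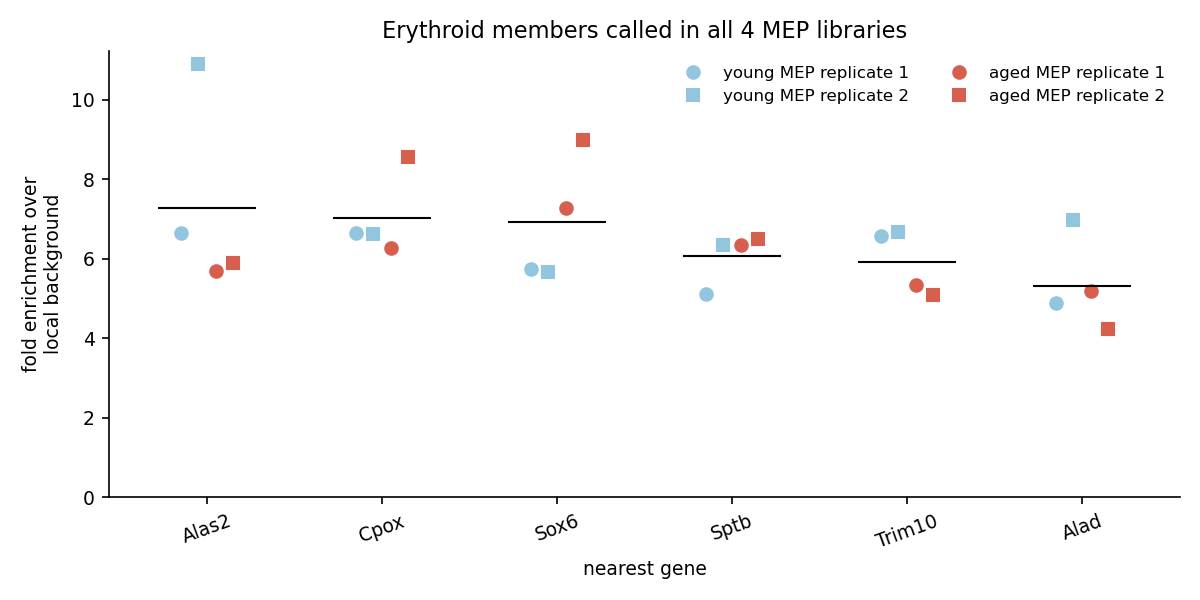
Fold enrichment over local background (vertical axis) at 6 members nearest to erythroid genes that were called in all 4 MEP libraries, with circles for replicate 1, squares for replicate 2, blue for young, red for aged and a line for the mean of the 4. Values run from 4.24 to 10.9, and the ages do not overlap at Alas2 and Trim10, where young is higher, and at Sox6, where aged is higher.

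Some genes had several members. The members were assigned to 913 genes, of which 96 had 2 or more members and 6 had 3 or more, the latter named here after their values were seen. The genes with 2 or more held 199 of the 1016 members. Mgll, which encodes monoglyceride lipase, had the most, with 4 intronic members within chr6:88731073-88783400. Those at chr6:88740972-88741442 and chr6:88783037-88783400 were called in all 4 MEP libraries, at 6.14 to 8.03 and at 6.11 to 10.9. All 4 held a GATA hexamer. Atp2b4, which encodes a plasma membrane calcium pump found in red cells, had 3 members that were all called in all 4 MEP libraries, at chr1:133745147-133745520 in an intron, at the promoter chr1:133754287-133754803 and between genes at chr1:133825459-133826025. Their fold enrichment was 4.61 to 6.77, 7.67 to 9.54 and 7.998 to 9.82. Adgrl2, Ipo11 and Pde4d had 3 members each, and all 9 of these held a hexamer. The sixth gene was Tmem267, whose 3 members, described above, held none.

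The 34 promoter members were few, and 88.2% of them held a GATA hexamer, against 85.0% of the 981 others with sequence. The 9-base CTG and GATA pair was held by 14.7% of promoter members (5) and by 26.6% of the others (261). Neither difference was tested. Of the 34 promoter members, 13 were called in all 4 MEP libraries, among them Gid8, Znfx1, Gpr146, Mllt3 and Clta. The promoter member of Gpr146 (chr5:139388700-139389248) reached 5.40 and 8.93 in young and 7.63 and 11.0 in aged MEPs. That of Znfx1 (chr2:167043285-167043818) reached 10.9 and 4.93 in young and 7.13 and 11.0 in aged MEPs, so the ages overlapped at both.

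The calls of members were then split by age. Both aged and no young MEP library called 65 members (6.40%), and over all regions called in 2 or more MEP libraries this pattern held for 4.28%. Both young and no aged MEP library called 53 members (5.22%), against 2.44%. Both shares were above those of all MEP regions, but so was the share of every other pattern of exactly 2 MEP libraries. The 4 mixed patterns of 1 young and 1 aged library held 47 to 84 members each, so the age patterns lay within their range. The share of members with a hexamer was 84.6% in the aged pattern and 77.4% in the young pattern.

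Calls of members outside MEPs were most frequent in MPP2, a multipotent progenitor fraction known for a megakaryocyte bias. In MPP2, 86 members (8.46%) had their 1 allowed call, followed by HSC with 31 in 8 libraries, MPP4 with 28, MPP1 and MPP3 with 18 each, and GMP and CLP with 10 each. Single libraries made up much of these counts. Of the 28 in MPP4, 24 came from young replicate 2, and of the 18 in MPP3, 12 came from young replicate 2. Aged replicate 1 gave 10 of the 18 in MPP1, and aged replicate 2 gave 7 of the 10 in CLP and 4 of the 10 in GMP. In MPP2, aged replicates 1 and 2 gave 33 and 40 of the 86. Members with a call in MPP2 held a GATA hexamer in 89.5% of cases. Since the rule removes regions with 2 calls in another fraction, the regions called in 2 or more MEP and 2 or more MPP2 libraries and in at most 1 library of each other fraction were set beside the members. There were 115 of these, of which 92.2% held a hexamer and 28.7% the 9-base pair. The same set with HSC in place of MPP2 had 24 regions, that with GMP 61, and those with MPP1, MPP3, MPP4 and CLP 5, 1, 2 and 4.

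Over the 1131 regions of the members and these 115 together, young MPP2 replicates 1 and 2 called 60 and 61, and aged MPP2 replicates 1 and 2 called 137 and 143. The means were 5.35% ± 0.0625 (SD, n = 2) in young and 12.4% ± 0.375 (SD, n = 2) in aged MPP2, a difference of 7.03 percentage points with p = 0.333 by the exact permutation test, the smallest value possible. The young and aged values did not overlap. All regions called in these libraries numbered 30898 and 31683 in young and 36547 and 30342 in aged MPP2, and aged replicate 2 called the fewest of the 4. Among the 115 regions, 34 were called in both aged and no young MPP2 library and 0 in both young and no aged, and of all regions called in 2 or more MPP2 libraries 4.72% and 2.73% showed these patterns. The local background around weak peaks was 62.0 and 60.5 reads per 10 kb in young and 67.0 and 85.5 in aged MPP2, and its part in the difference was not tested.

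Just outside the rule, 1015 regions were called in 1 MEP library and in at most 1 library of each other fraction. Of these 73.2% held a GATA hexamer, compared with 81.6%, 86.2% and 88.4% of members called in 2, 3 and 4 MEP libraries. Regions kept out by exactly 2 calls in 1 other fraction numbered 54 for MPP2, 16 for GMP, 7 for HSC, 4 for MPP1 and 1 each for MPP3, MPP4 and CLP.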

How the data were processed

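The authors aligned 60-bp single reads to mm10 with Bowtie2, handled them with SAMtools, subsampled libraries to equal reads and called peaks per library with MACS2 2.2.6 at a q limit of 0.001, per the study's methods and the submitters' processing notes. The deposited peak lists give a fold enrichment over local background (a ratio), and −log10 p and −log10 q values, which the authors' peak caller computed. Of 1358077 entries, 1204561 distinct peaks remained after summits of 1 peak were joined.

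Here peaks were merged over libraries, and a library counted as calling a region when any of its peaks lay there. Classes and nearest genes came from GENCODE M21 protein-coding transcripts, with promoters from 1000 bp before to 100 bp after a TSS. Motifs were searched within 100 bp of the median summit in GRCm38, on either strand. Reads behind a peak were solved from its fold enrichment and p-value. Depth is known only through this step.

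The members and the gene and motif lists were chosen with earlier results of these data known. Named regions are the 10 members called in all 4 MEP libraries and nowhere else with the highest lowest percentile of fold enrichment, and members nearest to an erythroid or megakaryocyte gene, of which 4 are not reported here. Tests were two-sided exact permutation tests over libraries, with Benjamini-Hochberg adjustment where 2 comparisons were made. Merging, motif search, read solving and the permutation test were tested on simulated data. Python 3.11.15, NumPy 2.4.6, pandas 2.3.3, SciPy 1.17.1, matplotlib 3.10.9 and bedtools 2.31.1 were used. Alternatives changed the q limit, overlap, number of libraries, peaks per library, promoter, motif window and gene assignment, and left out each MEP library in turn, and each GMP and CLP library for the left-out call rate only.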

Additional observations from a re-analysis of the deposited data

Results flagged for a closer look

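In groups of 4 to 8 libraries of a fraction, a library was singled out when its gap to the nearest other was large for the range of its group (Dixon's 95% limit), which chance gives in about 1 of 20 groups. Of 33 groups tested, 4 were singled out. Groups of member counts, member shares and GATA shares rest on the calls that chose the regions, so this chance rate does not hold for them. The MPP4 count and share below are the same 24 calls on different scales, and all flags are given as description. Young MPP4 replicate 2 called 24 of the MEP-only regions, while the nearest other MPP4 library called 2, and in the same library these made up 0.0716% of the regions called, against 0.00618% in the nearest. Young CLP replicate 1 held a GATA hexamer in 23.2% of its CLP-only regions, against 22.0488% in the nearest CLP library. Aged MPP4 replicate 1 had 33302 peaks, and the nearest MPP4 library had 34417.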

How the results depend on the processing

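Requiring 3 of 4 MEP libraries left 620 regions, of which 87.4% held a GATA hexamer, with 15 nearest to erythroid and 3 to megakaryocyte genes. Requiring all 4 left 337 regions, 88.4%, 8 and 0. With peaks of −log10 q of at least 10 the rule gave 329 regions, 6.08% of them promoters, with 9 nearest to erythroid and 2 to megakaryocyte genes. With equal numbers of peaks it gave 2460 regions, 26.7% promoters, 54.1% with a hexamer, 15.1% with the 9-base CTG and GATA pair, and 44 and 13 nearest to erythroid and megakaryocyte genes. A wider promoter window of 2 kb before to 0.5 kb after the TSS held 5.22% of members. Within 50 bp of the summit 63.2% of members held a hexamer (all regions 15.1%) and 14.7% the pair (1.501%), and over whole regions 94.3% (39.7%) and 33.6% (4.63%). The cause of these shifts was not tested, apart from the fewer or longer sequences searched.

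The difference in members called between aged and young MEP libraries turned to -45 with equal numbers of peaks and ranged from -7 (without young MEP replicate 1) to 53 without single libraries. The age difference in fold enrichment turned to -0.00105 on the ratio to shared regions, was 0.0125 at −log10 q of at least 10, and ranged from 0.0981 to 0.332 without single libraries. Members nearest to megakaryocyte genes numbered 3 (without aged MEP replicate 2) to 6 without single libraries. The left-out call rate of MEP minus CLP turned to -3.64 percentage points when 50% of a region had to be covered and to -4.24 with equal numbers of peaks, and ranged from -2.46 to 5.39 without single libraries, reversing without aged MEP replicate 2 (-0.495), young CLP replicate 1 (-1.70) or aged CLP replicate 1 (-2.46). The cause was not tested. With the replicate number as a block, the replicate block gave the same differences, 24.5 members and 0.128 in fold enrichment, the latter with p = 0.5 by exact sign flips, the smallest possible with 2 pairs. Deviations of same-numbered libraries correlated at 0.0289 over 6389 regions, so the numbers were not taken as pairs. Members rested on a median of 17 or 18 reads at the summit, and 2 libraries per age allow no p below 0.333.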
